A study of Rattus norvegicus with 39 samples.

Results

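Bile duct tissue and hepatocytes of untreated rat liver were compared gene by gene, using the vehicle animals of a study of the bile duct toxicant ANIT (alpha-naphthylisothiocyanate). The comparison used 19 of the study's 39 arrays, and the 20 arrays of ANIT-dosed animals were not used. All 19 came from Sprague Dawley rats aged 8 weeks that had received only corn oil, 10 ml/kg, as the vehicle. The bile duct captures numbered 5 at 2 h and 4 at 6 h after dosing, and the hepatocyte captures numbered 5 at 2 h and 5 at 6 h. Tissue was cut from liver sections by laser capture microdissection, and the small amounts of RNA were amplified before hybridisation, so each array reports a captured patch of tissue and not a purified cell type. The arrays are labelled as biological replicates. The protocols name 5 control rats in a group, and the labels do not say whether a duct capture and a hepatocyte capture came from the same rat. The values are log2 signals, and a difference is always the bile duct mean minus the hepatocyte mean, so that a difference of 1 is a 2-fold higher signal in bile duct. A gene with several probe sets was represented by the brightest. Each of the 15866 probe sets was tested at 2 h and at 6 h with limma, and a gene is said to be higher or lower only where the Benjamini-Hochberg adjusted p was under 0.05 at both times with the same sign. An error after a mean is a standard deviation (SD) and after a difference a standard error (SE).

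Hepatocytes take bile acids and drugs from sinusoidal blood through basolateral carriers, synthesise bile acids from cholesterol, pump both into the canaliculus, and export plasma proteins, glucose, urea and lipoproteins. Cholangiocytes line the ducts that drain this bile. They dilute and alkalinise it by secreting chloride, bicarbonate and water under the control of secretin, reclaim glucose, amino acids and bile acids from it, and are patterned during development by Notch, TGF-beta and other signals from the portal tract. A portal duct lies in connective tissue with an artery, a vein and immune cells, and these can enter a capture of it.

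Promoters of 5 genes described below are shown as examples that differ in base composition as well as in the direction of the expression difference, and they were chosen with that contrast known. They are Cd24 and Mat2a, higher in bile duct, and Cyp2e1, Slc10a1 and Mat1a, lower in bile duct. Mat2a and Mat1a encode methionine adenosyltransferases, which make the same product. Each sequence runs 5′ to 3′ on the gene's own strand from 250 bases before the annotated start to 50 bases after the start, from RefSeq on the GRCr8 build, with capitals where the letters of a searched motif were found on either strand.
Cd24, chr20:48656227-48656526 (+ strand): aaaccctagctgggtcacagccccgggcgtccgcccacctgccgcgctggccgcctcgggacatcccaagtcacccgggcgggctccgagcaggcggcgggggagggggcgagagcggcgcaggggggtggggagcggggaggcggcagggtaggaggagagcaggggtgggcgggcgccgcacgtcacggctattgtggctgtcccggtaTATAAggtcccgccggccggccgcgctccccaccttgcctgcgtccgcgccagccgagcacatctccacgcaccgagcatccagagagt
Mat2a, chr4:106053563-106053862 (- strand): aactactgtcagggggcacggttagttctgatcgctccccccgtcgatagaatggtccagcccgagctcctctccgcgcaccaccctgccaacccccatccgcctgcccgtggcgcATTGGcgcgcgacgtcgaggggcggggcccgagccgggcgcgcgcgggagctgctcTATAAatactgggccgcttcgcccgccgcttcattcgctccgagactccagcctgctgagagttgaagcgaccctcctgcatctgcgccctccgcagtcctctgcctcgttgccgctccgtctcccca
Cyp2e1, chr1:205269717-205270016 (+ strand): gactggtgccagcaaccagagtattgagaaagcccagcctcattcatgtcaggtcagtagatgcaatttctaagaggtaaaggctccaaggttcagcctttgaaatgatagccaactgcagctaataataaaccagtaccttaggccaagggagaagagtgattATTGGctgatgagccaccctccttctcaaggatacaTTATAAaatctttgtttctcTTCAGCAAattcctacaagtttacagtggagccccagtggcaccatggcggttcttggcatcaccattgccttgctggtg
Slc10a1, chr6:106357895-106358194 (- strand): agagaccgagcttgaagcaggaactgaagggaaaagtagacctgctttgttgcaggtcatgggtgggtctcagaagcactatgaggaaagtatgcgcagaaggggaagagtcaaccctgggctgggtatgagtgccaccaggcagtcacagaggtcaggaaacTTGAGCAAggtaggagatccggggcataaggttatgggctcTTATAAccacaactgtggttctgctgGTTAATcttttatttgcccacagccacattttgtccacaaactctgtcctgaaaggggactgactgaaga
Mat1a, chr16:17016918-17017217 (+ strand): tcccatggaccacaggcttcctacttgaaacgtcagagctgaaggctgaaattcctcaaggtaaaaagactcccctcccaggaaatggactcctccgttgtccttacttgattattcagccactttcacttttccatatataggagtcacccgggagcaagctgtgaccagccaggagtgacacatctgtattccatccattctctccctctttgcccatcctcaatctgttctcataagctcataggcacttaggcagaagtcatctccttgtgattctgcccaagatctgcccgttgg
The Cd24 and Mat2a stretches held 74.0% and 68.0% G or C with 34 CG dinucleotides in each. The Cyp2e1, Slc10a1 and Mat1a stretches held 46.0%, 50.0% and 48.7% G or C, with 1, 3 and 4 CG dinucleotides. The letters of the TATA box, TATAA, were found in the first 4 sequences on one strand or the other. The C/EBP core TTGCNNAA was found in Cyp2e1 and Slc10a1, the HNF1 site GTTAAT in Slc10a1, and CCAAT in Mat2a and Cyp2e1, while none of the searched motifs was found in the Mat1a stretch.

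The same letters were counted on both strands in all 33469 promoters of that table, without a test, as a description. GTTAAT was present in 9.24% of the 552 promoters of genes lower in bile duct by at least 2 log2 units at both times, and in 3.45% of the 203 promoters of genes higher by as much, against 4.86% of the 8630 promoters of genes on the array. The HNF4 core CAAAGTCCA was present in 1.63% of the lower genes and 0.493% of the higher genes, against 0.371% of genes on the array. TATAA was present in 22.3% of the lower genes and 18.7% of the higher genes, against 16.1%, and the C/EBP core in 13.8% and 12.8%, against 8.88%. CCAAT was present in 45.8% of the lower genes and 33.5% of the higher genes, against 37.6%. The TEAD site GGAATG was present in 16.3% of the higher genes and 12.3% of the lower genes, against 11.5% on the array. The AP-1 site TGANTCA was present in 7.39% and 7.07% of the same sets, against 5.47%. Median G or C content was 61.3% for the higher genes and 57.0% for the lower genes, against 60.3% on the array. The median number of CG dinucleotides was 16 for the higher genes and 14 for the lower genes, against 20 on the array. The wide gap in CG dinucleotides between the examples above was thus not seen between these sets. A run of letters is not a bound site, and the window covers only the stretch next to the start.

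The arrays differed in ways that bear on every value below. The standard deviation over all probe sets of an array was 1.987 to 2.176 in bile duct at 2 h, against 2.321 to 2.371 in hepatocytes, and 1.679 to 1.879 in bile duct at 6 h, against 2.237 to 2.293 in hepatocytes. Bile duct values were thus spread less widely than hepatocyte values. When probe sets were cut into 5 equal groups by mean level, the dimmest group held 557 that were higher and 4 that were lower in bile duct, and the brightest held 365 higher and 1304 lower. After a further quantile normalization, which gives every array the same distribution, these counts were 58 and 18 in the dimmest group and 806 and 837 in the brightest. Counts after that normalization therefore stand beside the main counts throughout. They were counted anew, so some of their genes are not among the main calls. Pairs of arrays of a group correlated at 0.939 to 0.973 in bile duct at 2 h, against 0.982 to 0.992 in hepatocytes, and at 0.834 to 0.893 in bile duct at 6 h, against 0.985 to 0.988 in hepatocytes. Presence calls were not used here, and the size of a difference is poorly known where a group's signal lies near the bottom of the scale.

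The captures carried the markers of their labels. Of 26 cholangiocyte markers, 18 were measured, and 16 of these were higher in bile duct at both times and none lower, against 16.7% of all probe sets higher and 18.2% lower. After quantile normalization 18 of 18 were higher. Of 20 hepatocyte markers, 19 were measured and 19 were lower in bile duct (18 after quantile normalization). The median differences of these lists were 4.48 at 2 h and 3.32 at 6 h for cholangiocyte markers, and -5.98 and -4.69 for hepatocyte markers, against 0.16 and 0.23 for all probe sets.

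Krt19, a keratin of duct epithelium, read 11.53, 11.41, 11.58, 11.45 and 11.53 in the bile duct arrays at 2 h, against 3.72, 3.79, 3.39, 3.68 and 3.65 in hepatocyte arrays. At 6 h Krt19 read 11.10, 10.79, 10.59 and 11.21 in bile duct, against 2.80, 3.39, 3.49, 3.41 and 2.81 in hepatocytes. No array lay between the groups, and the differences were 7.85 ± 0.13 at 2 h and 7.74 ± 0.24 at 6 h (limma adjusted p = 1.61e-13 and 2.84e-10). Cd24, a surface glycoprotein of biliary and progenitor cells, read 8.94, 8.92, 9.34, 9.51 and 9.44 in bile duct at 2 h, against 2.20, 2.59, 2.09, 2.37 and 2.32 in hepatocytes. At 6 h it read 9.02, 7.95, 7.28 and 8.87 in bile duct, against 2.60, 2.44, 2.61, 3.02 and 2.44 in hepatocytes. Every bile duct array was far above every hepatocyte array, and replicates 2 and 3 at 6 h were the lowest of the duct arrays. The Cd24 difference was 6.92 ± 0.16 at 2 h and 5.66 ± 0.33 at 6 h.

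Cyp2e1, a cytochrome P450 of hepatocytes around the central vein, read 2.36, 3.26, 2.17, 3.76 and 1.54 in bile duct at 2 h, against 10.42, 9.75, 10.53, 10.10 and 10.36 in hepatocytes. At 6 h it read 5.51, 3.85, 8.90 and 2.35 in bile duct, against 10.11, 9.88, 10.29, 10.05 and 10.20 in hepatocytes. Groups did not overlap, but replicate 3 of the 6 h bile duct arrays came within 1 log2 unit of the lowest hepatocyte array. Slc10a1, the sodium-dependent bile acid carrier NTCP, read 1.85, 3.85, 3.04, 4.13 and 3.10 in bile duct at 2 h, against 9.98, 9.76, 9.83, 9.75 and 9.84 in hepatocytes. At 6 h Slc10a1 read 5.70, 3.02, 5.23 and 3.16 in bile duct, against 9.63, 9.56, 9.64, 9.44 and 9.50 in hepatocytes, again highest in replicates 1 and 3. The differences were -7.61 ± 0.35 and -4.95 ± 0.93 for Cyp2e1 and -6.64 ± 0.33 and -5.28 ± 0.48 for Slc10a1 at 2 h and 6 h. Alb, the gene of serum albumin, read 10.84 to 11.91 in the 5 bile duct arrays at 2 h, against 12.49 to 12.98 in hepatocytes. At 6 h it read 12.25, 11.26, 12.63 and 10.98 in bile duct, against 12.56, 12.51, 12.57, 12.70 and 12.49 in hepatocytes, so that the groups overlapped and the difference of -0.79 ± 0.31 was not called after quantile normalization. Without replicates 1 and 3 of bile duct the 6 h difference of Alb was -1.45.

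**Figure D1:**
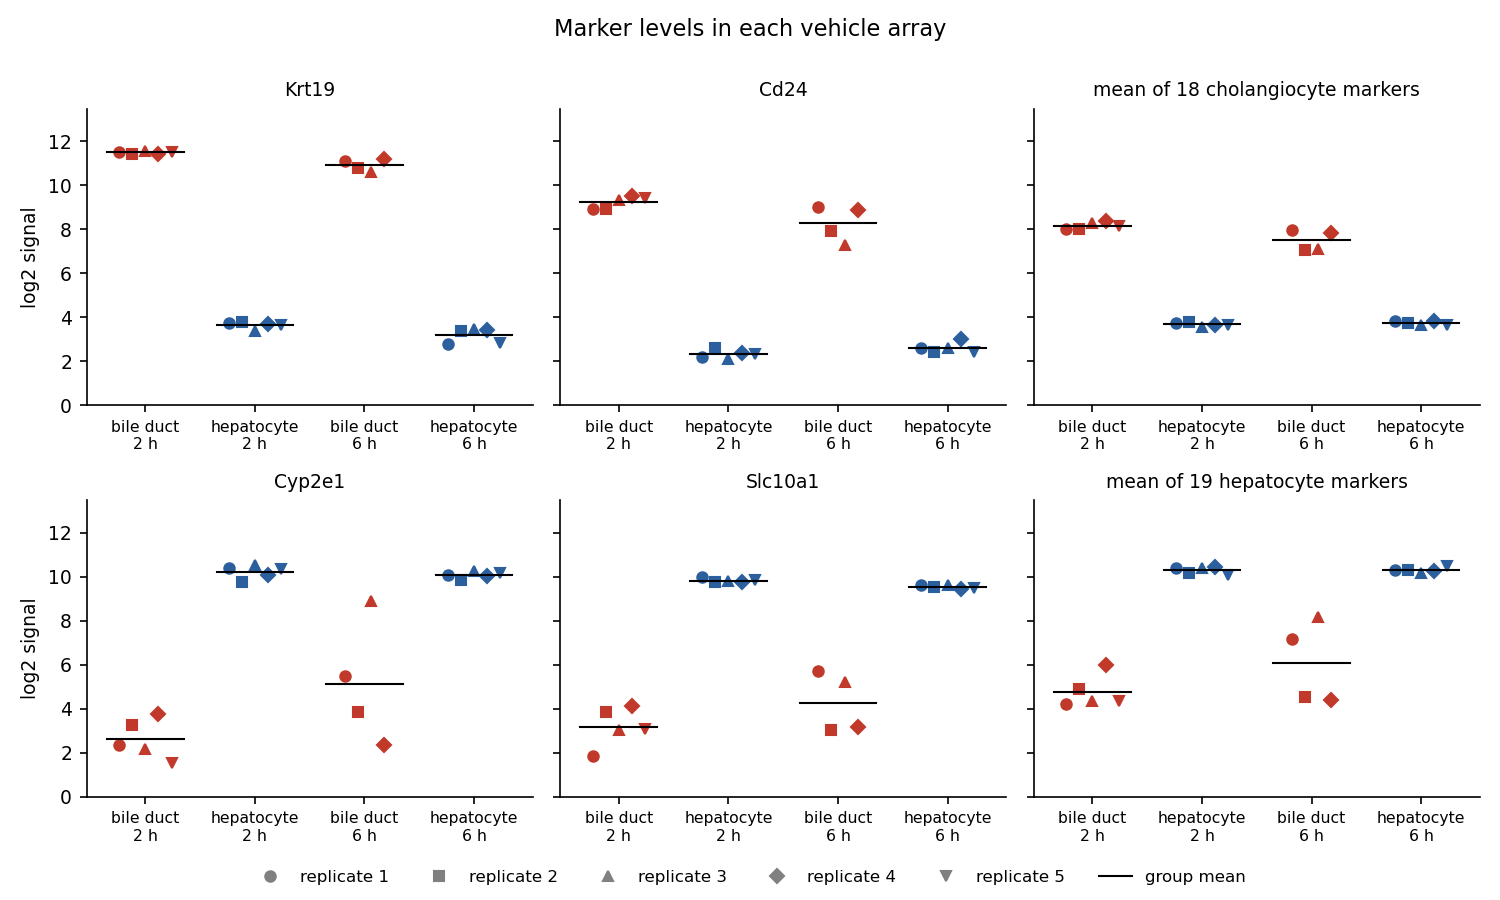
Log2 signal of Krt19, Cd24, Cyp2e1 and Slc10a1 and the mean log2 signal of 18 cholangiocyte and 19 hepatocyte markers, 1 point per array (red bile duct, blue hepatocyte), with the group mean as a line. Hepatocyte markers spread most in bile duct at 6 h, where replicates 1 and 3 averaged 7.17 and 8.20 and replicates 2 and 4 averaged 4.55 and 4.42.

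Hepatocyte markers were thus not evenly low in bile duct captures. Their mean level was 4.21 to 6.00 in bile duct at 2 h, against 10.09 to 10.43 in hepatocytes, and 4.42 to 8.20 in bile duct at 6 h, against 10.17 to 10.50 in hepatocytes. At 6 h, replicates 1 and 3 of bile duct had the high values (7.17 and 8.20). Without these 2 arrays, an alternative added after the data were seen, the 6 h median difference of the hepatocyte markers was -6.46 in place of -4.69, and 5421 probe sets were called at both times in place of 5537. Cholangiocyte markers averaged 8.02 to 8.39 in bile duct at 2 h, against 3.55 to 3.80 in hepatocytes, and 7.06 to 7.99 in bile duct at 6 h, against 3.67 to 3.83 in hepatocytes. In captured tissue, fewer cells of a type and less RNA per cell cannot be told apart.

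Bile duct and hepatocyte captures differed at 2 h in 8286 probe sets (52.2%), with bile duct above hepatocytes in 4553 (28.7%) and below them in 3733 (23.5%). At 6 h they differed in 8515 (53.7%), with bile duct above in 4643 (29.3%) and below in 3872 (24.4%). The same direction held at both times for 5537 probe sets (34.9%), 2642 higher and 2895 lower, which was 66.8% of the 2 h calls and 65.0% of the 6 h calls. Percentages set beside the lists are those of all probe sets, although a list reads each gene by its brightest probe set. Read in that way, 1633 of 10411 genes were higher and 2304 lower. Opposite directions were called for 90 probe sets (0.567%). Bile duct and hepatocyte arrays did not overlap at either time in 3947 of the 5537 (24.9% of all probe sets), 1649 higher (10.4%) and 2298 lower (14.5%). After quantile normalization 4144 were called at both times (26.1%), 2023 higher (12.8%) and 2121 lower (13.4%). Of the 5537, 3386 were also among these (21.3% of all probe sets). Across all probe sets, which are not independent replicates, the differences at 2 h and 6 h correlated with a Pearson r of 0.865.

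**Figure D2:**
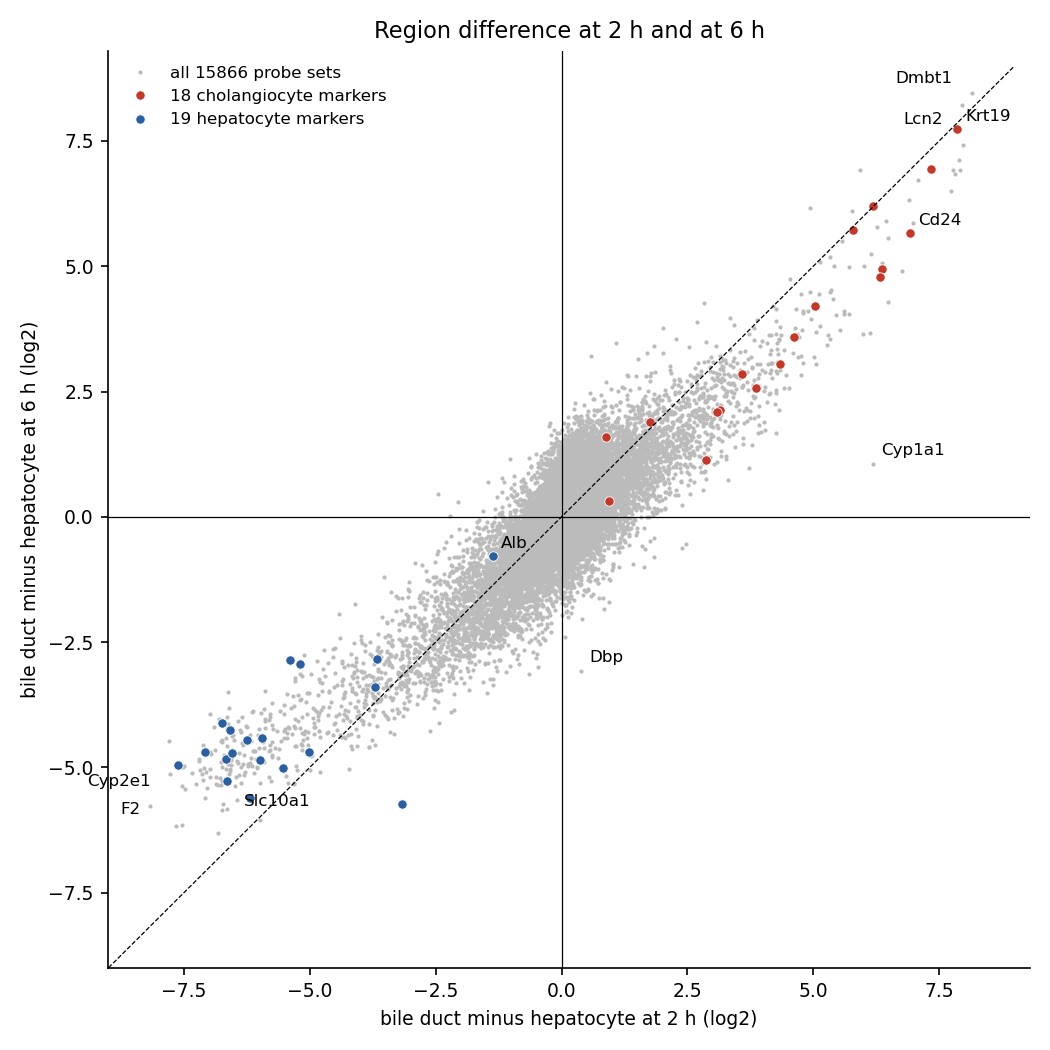
Bile duct minus hepatocyte difference (log2) at 2 h on the x axis and at 6 h on the y axis, for all 15866 probe sets (grey), 18 cholangiocyte markers (red) and 19 hepatocyte markers (blue), with a dashed line where both times are equal. Most markers lie far from 0 at both times, while Cyp1a1 differs by 6.18 at 2 h and 1.06 at 6 h, and Dbp by 0.38 at 2 h and -3.07 at 6 h.

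The 12 genes furthest above 0 at both times, with no overlap of arrays, were Dmbt1, Lcn2, Krt19, S100a11, Msln, Ggt1, Tspan8, Fxyd3, Serpinb1a, Gpx2, Aqp5 and Prom1. Dmbt1, a secreted scavenger protein of epithelia, averaged 12.20 ± 0.21 in bile duct at 2 h and 4.04 ± 0.55 in hepatocytes, and 11.74 ± 0.48 in bile duct at 6 h and 3.29 ± 0.51 in hepatocytes. Lcn2, lipocalin 2, a siderophore-binding protein of mucosal defence, differed by 7.95 ± 0.47 and 8.21 ± 0.38. Msln, mesothelin, differed by 7.89 ± 0.26 and 7.12 ± 0.20, and Ggt1, the gamma-glutamyltransferase of the duct surface, by 7.34 ± 0.19 and 6.94 ± 0.28. Each of these 4 genes was above 9 in every bile duct group mean and below 5 in every hepatocyte group mean. Gpx2, a glutathione peroxidase of epithelia, differed by 7.74 ± 0.27 and 6.51 ± 0.49.

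The 12 genes furthest below 0 were Obp3, Cyp3a18, Kng2l1, Dmgdh, Ass1, Reep6, F2, Ppp2r2a, Kyat3, Hrg, Asgr1 and Proc. F2, prothrombin, averaged 3.19 ± 1.24 in bile duct at 2 h and 11.37 ± 0.05 in hepatocytes, and 5.41 ± 2.82 in bile duct at 6 h and 11.18 ± 0.06 in hepatocytes. Ass1, argininosuccinate synthase of the urea cycle, differed by -6.75 ± 0.29 and -5.85 ± 0.32. Asgr1, a subunit of the asialoglycoprotein receptor, differed by -6.19 ± 0.28 and -5.61 ± 0.45. Cyp3a18 differed by -7.65 ± 0.46 and -6.16 ± 0.39, and may share signal with other members of its family.

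Markers of other cells of the portal tract and lobule also differed between the captures in some lists. Of 24 mesenchymal markers (fibroblasts, stellate cells and smooth muscle), 11 were higher in bile duct (7 after quantile normalization) and 4 lower, against 16.7% and 18.2% of all probe sets. Higher members included matrix and cytoskeleton genes, with differences of 4.95 ± 0.38 and 3.95 ± 0.36 for Col1a1 (collagen I), 4.60 ± 0.40 and 3.26 ± 0.49 for Mfap4, and 3.71 ± 0.21 and 3.14 ± 0.22 for Vim (vimentin). Lower members were Reln, Dpt, Lrat, the retinol-esterifying enzyme of stellate cells, and Ecm1, with Reln at -4.61 ± 0.29 and -3.48 ± 0.29. The mean level of the list was 4.55 to 5.59 in bile duct at 2 h, against 4.22 to 4.41 in hepatocytes, and 4.60 to 5.18 in bile duct at 6 h, against 4.17 to 4.49 in hepatocytes. No bile duct array overlapped a hepatocyte array in that mean (exact permutation test, two-sided, adjusted p = 0.0136 at 2 h and 0.019 at 6 h over the 12 array measures of a time). These are also the smallest adjusted values in either family, from exact p-values of 0.00794 and 0.0159 that the designs cannot go below.

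Of 9 dendritic cell and MHC class II markers measured, 4 were higher in bile duct and none lower, the same counts as after quantile normalization. All probe sets were higher for 16.7% and lower for 18.2%. The 4 were Cd74, RT1-Da, RT1-Db1 and RT1-DMb. Cd74, the invariant chain, averaged 11.39 ± 0.29 in bile duct at 2 h and 8.39 ± 0.66 in hepatocytes, and 11.11 ± 0.24 in bile duct at 6 h and 8.73 ± 0.23 in hepatocytes. RT1-Db1 was read by a probe set that may cross-hybridise with related sequences. The list's mean level was 6.68 ± 0.35 in bile duct at 2 h and 4.68 ± 0.37 in hepatocytes, and 5.93 ± 0.33 in bile duct at 6 h and 4.81 ± 0.25 in hepatocytes (exact permutation test, adjusted p = 0.0136 and 0.019). Among 14 T, NK and B cell markers, Cd79b alone was higher and none was lower, shares below those of all probe sets. The Cd79b probe set was not called after quantile normalization. The list mean was 2.62 ± 0.11 in bile duct at 2 h and 2.45 ± 0.10 in hepatocytes (exact permutation test, adjusted p = 0.0714), and 3.13 ± 0.21 in bile duct at 6 h and 2.42 ± 0.08 in hepatocytes (adjusted p = 0.019). That 6 h difference of 0.71 was near the median 6 h difference of all dim probe sets. The median was 0.66 in the dimmest group by mean level and 0.68 in the next. Whether lymphocytes contribute was not tested.

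Of 12 endothelial markers 3 were lower in bile duct, Fcgr2b, Kdr and Lyve1, and none was higher (1 after quantile normalization). The other 9 were not called at both times. Among all probe sets 18.2% were lower and 16.7% higher. Of 11 macrophage and Kupffer cell markers, 2 were lower, Clec4f and Cd68, a share near that of all probe sets, and none was higher. The mean level of the endothelial list was 4.10 to 5.79 in bile duct at 2 h, against 5.40 to 5.82 in hepatocytes, and 4.02 to 4.90 in bile duct at 6 h, against 5.28 to 5.64 in hepatocytes (exact permutation test, adjusted p = 0.0741 at 2 h and 0.019 at 6 h). The mean of the macrophage list was 4.52 to 5.51 in bile duct at 2 h, against 5.74 to 5.97 in hepatocytes, and 4.48 to 5.00 in bile duct at 6 h, against 5.37 to 5.61 in hepatocytes (exact permutation test, adjusted p = 0.0136 and 0.019). Clec4f, a lectin of Kupffer cells, averaged 2.49 ± 0.48 in bile duct at 2 h and 9.12 ± 0.10 in hepatocytes, and 4.90 ± 1.28 in bile duct at 6 h and 8.40 ± 0.29 in hepatocytes. The hepatocyte captures thus carried a strong signal of this marker. None of 4 erythroid markers was called at both times (1 was lower after quantile normalization). Among 9 proliferation markers 1 was higher, Mki67, by 2.19 ± 0.25 and 2.60 ± 0.28 (2 were higher after quantile normalization). How far any of these cells contribute to the differences described below was not tested.

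Carriers that bring bile acids and organic ions into hepatocytes were mostly lower in bile duct. Of 17 measured members of the basolateral uptake list 10 were lower and 1 higher, the same counts as after quantile normalization. All probe sets were lower for 18.2% and higher for 16.7%. The list's median differences were -3.96 at 2 h and -3.32 at 6 h. Beside Slc10a1, described above, the organic anion carriers differed by -6.60 ± 0.18 and -5.32 ± 0.30 for Slco1a4, by -5.81 ± 0.24 and -4.06 ± 0.59 for Slco1b2, and by -4.76 ± 0.19 and -3.32 ± 0.24 for Slco1a1. Slc22a7 and Slc22a8, organic anion transporters of the SLC22 family, differed by -5.29 ± 0.23 and -4.21 ± 0.31 and by -5.79 ± 0.22 and -4.55 ± 0.38. Slco3a1 was the higher member, by 1.25 ± 0.20 and 1.26 ± 0.24, from levels of 3.47 in bile duct and 2.21 in hepatocytes at 2 h, near the bottom of the scale. Probe sets of the Slco family may share signal among its members.

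Canalicular export pumps were lower in bile duct. Abcb11, the canalicular bile salt export pump, read 3.42, 2.30, 1.62, 3.08 and 1.81 in bile duct at 2 h, against 9.18, 8.88, 8.97, 9.16 and 8.87 in hepatocytes. At 6 h it read 4.06, 3.11, 4.99 and 2.22 in bile duct, against 8.63, 8.50, 8.55, 8.50 and 8.55 in hepatocytes, with no overlap, for differences of -6.57 ± 0.30 and -4.95 ± 0.43. Abcc2, a canalicular pump of conjugates, differed by -6.23 ± 0.18 and -4.94 ± 0.30. Abcb4, which moves phospholipid into bile, differed by -2.86 ± 0.27 and -2.81 ± 0.33, and Abcg5, a partner in cholesterol export, by -3.36 ± 0.29 and -2.56 ± 0.36. In all, 8 of the 17 measured genes of the export list were lower (7 after quantile normalization) and 3 higher. The shares over all probe sets were 18.2% and 16.7%. The share higher was thus near that of all probe sets.

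The 3 higher genes of the export list were Abcc3, Abcc1 and Slc10a2, which handle organic anions or bile acids. Slc10a2 is an uptake carrier, although it stood in that list. Abcc3, a basolateral conjugate pump of the same family as Abcc2, read 7.41, 7.30, 7.95, 7.90 and 7.33 in bile duct at 2 h, against 2.82, 2.86, 2.52, 3.01 and 2.82 in hepatocytes. At 6 h Abcc3 read 7.37, 6.86, 6.99 and 7.71 in bile duct, against 3.59, 3.71, 3.74, 3.50 and 2.96 in hepatocytes. It differed by 4.77 ± 0.17 and 3.73 ± 0.25, with no array of a group near the other group. Slc10a2, the apical bile acid carrier ASBT of cholangiocytes and ileum, read 5.21, 5.61, 5.30, 6.18 and 6.90 in bile duct at 2 h, against 4.69, 4.12, 4.17, 4.22 and 4.29 in hepatocytes. At 6 h Slc10a2 read 5.37, 5.42, 4.96 and 5.75 in bile duct, against 3.69, 4.22, 3.83, 3.90 and 4.08 in hepatocytes. The groups were separate at both times by a narrow margin, and the differences were 1.54 ± 0.28 and 1.43 ± 0.22 (limma adjusted p = 0.000397 and 0.000192). Abcc1 differed by 1.85 ± 0.16 and 1.75 ± 0.32.

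Genes of ductal chloride, bicarbonate and water secretion were higher in bile duct for 19 of 44 measured members and lower for 7 (14 and 5 after quantile normalization), with medians of 0.56 and 0.72. All probe sets were higher for 16.7% and lower for 18.2%. Called both with and without that normalization were 11 higher and 5 lower members. Fxyd3, a regulator of the sodium pump, differed by 7.77 ± 0.20 and 6.92 ± 0.21, and Atp1b1, the pump's beta subunit, by 4.16 ± 0.17 and 3.62 ± 0.22. Slc12a2, the basolateral chloride loader NKCC1, differed by 3.37 ± 0.21 and 2.52 ± 0.20. Kcnn4, a calcium-activated potassium channel, differed by 3.16 ± 0.20 and 2.04 ± 0.31. Car2, the cytosolic carbonic anhydrase that supplies bicarbonate, differed by 2.31 ± 0.26 and 1.77 ± 0.33. Slc4a2, the chloride-bicarbonate exchanger of the duct's apical membrane, differed by 1.34 ± 0.20 and 1.01 ± 0.21. Clic1 differed by 3.99 ± 0.18 and 2.92 ± 0.29.

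Water channels and carbonic anhydrases split between the captures. Aqp5 averaged 10.43 ± 0.14 in bile duct at 2 h and 3.53 ± 0.03 in hepatocytes, and 10.04 ± 0.23 in bile duct at 6 h and 3.72 ± 0.36 in hepatocytes. Aqp8, the water channel of the canalicular side, differed by -3.44 ± 0.20 and -4.03 ± 0.23, and Aqp9, an aquaglyceroporin of hepatocytes, by -6.00 ± 0.31 and -4.61 ± 0.50. Car3 and Car5a, the cytosolic and mitochondrial carbonic anhydrases of hepatocytes, differed by -4.32 ± 0.59 and -3.60 ± 0.76 and by -3.99 ± 0.25 and -3.07 ± 0.42, and the 6 h difference of Car3 was -5.49 without bile duct replicates 1 and 3. Aqp1, the classical cholangiocyte water channel, differed by 2.87 ± 0.48 at 2 h (limma adjusted p = 0.000199) and by 1.14 ± 0.46 at 6 h (adjusted p = 0.0506). It was not called at both times, but was after quantile normalization and in 4 of 19 fits that each left out 1 array, and its 6 h difference was 2.03 without bile duct replicates 1 and 3 (limma adjusted p = 0.00242). The sodium-bicarbonate cotransporter Slc4a4 differed by 1.96 ± 0.24 at 2 h and by 0.74 ± 0.45 at 6 h (adjusted p = 0.173). It was called at both times after quantile normalization and without bile duct 6 h replicate 2 (6 h difference 1.35), while the 6 h difference was 0.17 without replicates 1 and 3. Cftr, the secretin-gated chloride channel, was not analysed here.

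Among 18 sugar and monocarboxylate carriers 8 were lower and 3 higher (7 and 2 after quantile normalization), against 18.2% and 16.7% of all probe sets. The share higher was thus near that of all probe sets. Slc2a1, the widely expressed glucose carrier GLUT1, was higher by 1.99 ± 0.18 and 2.33 ± 0.28, and Slc5a1, the sodium-glucose cotransporter that reclaims glucose from bile, by 0.88 ± 0.22 and 1.60 ± 0.26. Slc37a4, the glucose-6-phosphate carrier of glucose release, was lower, at -3.37 ± 0.20 and -3.85 ± 0.28, as were the monocarboxylate carriers Slc16a7 and Slc16a1. Slc2a2, the hepatocyte glucose carrier GLUT2, averaged 8.30 ± 0.31 in bile duct at 2 h and 8.53 ± 0.31 in hepatocytes, a difference of -0.23 (limma adjusted p = 0.329), and 7.15 ± 0.60 in bile duct at 6 h and 8.80 ± 0.20 in hepatocytes. It was not called at both times.

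Among 26 amino acid and peptide carriers 8 were higher in bile duct and 5 lower (5 and 6 after quantile normalization), against 16.7% and 18.2% of all probe sets (12.8% and 13.4% after quantile normalization), so the share lower was near that of all probe sets. The higher ones included Slc7a1 (cationic amino acids), Slc1a3 and Slc1a1 (glutamate) and Slc15a1 (small peptides), with differences of 3.94 ± 0.27 and 3.04 ± 0.34 for Slc7a1 and 2.50 ± 0.22 and 2.71 ± 0.41 for Slc1a1. The lower ones included Slc38a3 and Slc38a4, system N and A carriers of hepatocytes, at -5.26 ± 0.19 and -5.05 ± 0.34 and at -4.84 ± 0.22 and -3.56 ± 0.31. Among 24 phosphate, metal and nucleoside carriers 12 were lower and 2 higher (8 and 3 after quantile normalization), against 18.2% and 16.7% of all probe sets. Slc34a2, a sodium-phosphate cotransporter of epithelia, was higher by 4.30 ± 0.27 and 3.24 ± 0.30, and Slc28a2, a nucleoside carrier, by 1.55 ± 0.38 and 1.03 ± 0.26. Slc39a14, a zinc and iron carrier, was lower, at -4.07 ± 0.18 and -3.98 ± 0.51, and Slc17a3, an organic anion and phosphate carrier, at -6.00 ± 0.15 and -4.24 ± 0.25.

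Of 55 genes of secretin, cAMP, calcium and purine signalling, 10 were higher in bile duct and 11 lower (5 and 10 after quantile normalization), with medians of -0.04 and 0.23, so these shares lay near those of all probe sets. Called both with and without that normalization were 3 higher and 8 lower genes. Gnas, a G protein subunit in the list, was the only called listed gene with another probe set called in the opposite direction. Sctr, the secretin receptor, read 4.55, 5.99, 6.20, 7.16 and 6.12 in bile duct at 2 h, against 1.61, 1.67, 1.68, 1.69 and 1.66 in hepatocytes. At 6 h Sctr read 7.27, 3.57, 3.93 and 4.43 in bile duct, against 1.73, 2.12, 1.84, 1.55 and 1.52 in hepatocytes. The groups were apart, but the bile duct arrays spread over more than 3 log2 units at 6 h, where replicate 1 was the highest, and the differences were 4.34 ± 0.34 and 3.05 ± 0.58. Chrm3, the muscarinic receptor, was higher by 1.89 ± 0.24 and 2.37 ± 0.22. Itpr3, the apical calcium release channel of cholangiocytes, was higher by 1.92 ± 0.25 and 0.94 ± 0.22, and was not called after quantile normalization.

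Several hormone receptors of the same list were lower in bile duct. Gcgr, the glucagon receptor, differed by -5.75 ± 0.20 and -4.75 ± 0.28, Agtr1a, an angiotensin receptor, by -5.62 ± 0.15 and -4.63 ± 0.24, and Avpr1a, the vasopressin receptor, by -5.29 ± 0.30 and -3.28 ± 0.30. Ptger3, a prostaglandin receptor, and Pth1r, the parathyroid hormone receptor, differed by -3.29 ± 0.24 and -3.41 ± 0.32 and by -2.45 ± 0.30 and -2.45 ± 0.33. Bile duct and hepatocyte arrays did not overlap for any of these 5 receptors at either time. Adra1b, an adrenergic receptor of hepatocytes, differed by -1.04 ± 0.21 at 2 h and -0.13 ± 0.28 at 6 h (limma adjusted p = 0.695) and was not called at both times.

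**Figure D3:**
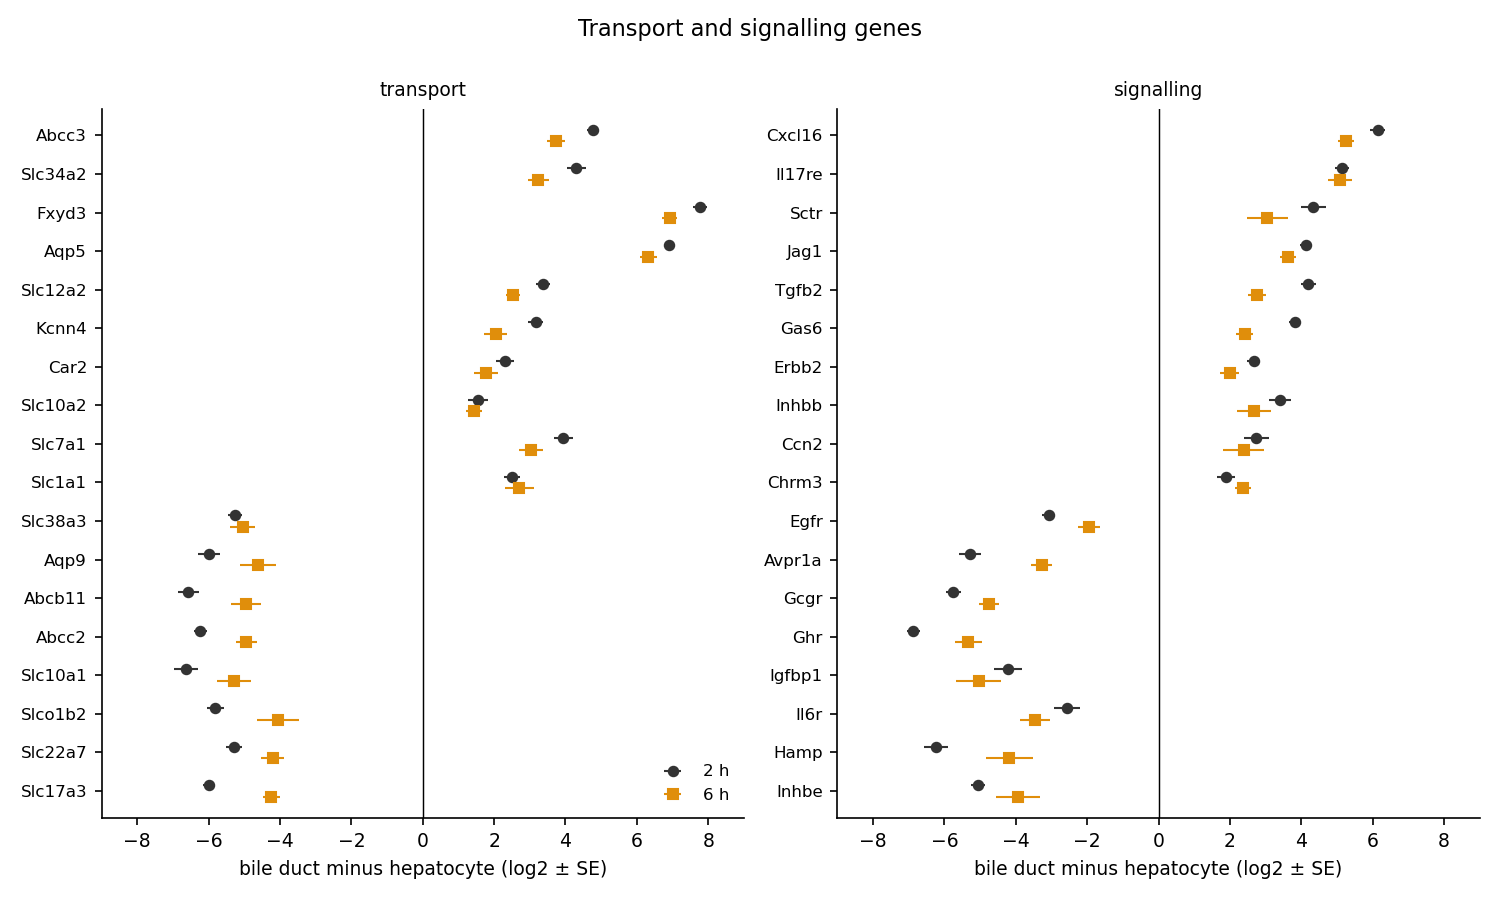
Bile duct minus hepatocyte difference (log2, bars ± SE) at 2 h (black circles) and 6 h (orange squares) for 18 transport genes and 18 signalling genes that were called at both times, with positive values higher in bile duct. Abcc3, Fxyd3 and Aqp5 lie opposite Abcb11, Abcc2 and Slc10a1, and Sctr, Jag1 and Tgfb2 lie opposite Gcgr, Ghr and Hamp.

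Notch and Hedgehog genes were higher in bile duct for 6 of 25 measured members and lower for 1 (3 and 1 after quantile normalization), against 16.7% and 18.2% of all probe sets. Called both with and without that normalization were 2 higher members and 1 lower. Jag1, the Notch ligand of the portal tract, read 9.43, 9.54, 9.47, 9.06 and 9.74 in bile duct at 2 h, against 5.12, 5.16, 5.32, 5.26 and 5.80 in hepatocytes. At 6 h it read 8.90, 9.29, 9.21 and 9.40 in bile duct, against 5.53, 5.31, 6.02, 5.76 and 5.27 in hepatocytes. No array overlapped, and the differences were 4.12 ± 0.17 and 3.62 ± 0.23. Smo, the Hedgehog signal transducer, was higher by 1.36 ± 0.24 and 1.57 ± 0.30, from low levels. Dll1, a further Notch ligand, was higher by 1.53 ± 0.21 and 0.90 ± 0.23 but was not called after quantile normalization. Numb, an inhibitor of Notch, was lower, at -0.86 ± 0.15 and -1.54 ± 0.20. The receptor Notch2 read 2.26 ± 0.24 in bile duct at 2 h and 2.11 ± 0.03 in hepatocytes, near the bottom of the scale, and the target Hes1 differed by 0.91 ± 0.26 and 0.79 ± 0.33 (limma adjusted p = 0.0581 at 6 h). Neither was called at both times.

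Among 45 TGF-beta and BMP genes 7 were higher and 4 lower in bile duct (9 and 4 after quantile normalization), with medians of 0.30 and 0.49. The share higher was near the 16.7% of all probe sets, and the share lower was below their 18.2%. Tgfb2, a TGF-beta ligand, read 7.36, 6.88, 6.96, 7.58 and 7.41 in bile duct at 2 h, against 3.27, 3.03, 2.58, 2.71 and 3.63 in hepatocytes. At 6 h Tgfb2 read 6.56, 5.45, 6.63 and 6.17 in bile duct, against 3.29, 3.53, 3.28, 3.76 and 3.36 in hepatocytes. Groups were separate, with differences of 4.19 ± 0.21 and 2.76 ± 0.26, and Tgfb3, another ligand, was higher by 1.56 ± 0.24 and 1.42 ± 0.28. Ltbp1, which stores the latent ligand in matrix, was higher by 2.42 ± 0.16 and 1.83 ± 0.27, and Inhbb, an activin subunit, by 3.41 ± 0.31 and 2.67 ± 0.48. Activin subunits divided, since Inhbe, the hepatocyte subunit, was lower, at -5.06 ± 0.20 and -3.93 ± 0.62.

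Hamp, the iron hormone hepcidin and a target of BMP signalling, read 3.64, 3.70, 3.11, 4.18 and 3.54 in bile duct at 2 h, against 10.35, 10.92, 8.87, 9.82 and 9.41 in hepatocytes. At 6 h Hamp read 7.20, 4.36, 7.03 and 4.56 in bile duct, against 10.53, 10.93, 9.16, 8.54 and 10.74 in hepatocytes, with replicates 1 and 3 of bile duct again the highest of their group. The differences were -6.24 ± 0.33 and -4.19 ± 0.66, and the 6 h difference was -5.52 without those 2 arrays. Bmp2, a ligand that sinusoidal endothelium supplies, was lower, at -2.58 ± 0.27 and -2.35 ± 0.32, and Id3, a further BMP target, at -0.92 ± 0.34 and -1.09 ± 0.35, which was not called after quantile normalization.

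Wnt and YAP genes were higher for 14 of 37 measured members and lower for 2 (9 and 1 after quantile normalization), against 16.7% and 18.2% of all probe sets. Called both with and without that normalization were 7 higher members and no lower one. Daam2, a formin that acts downstream of Wnt receptors, was higher by 2.86 ± 0.34 and 3.48 ± 0.26. Dkk3, of the Dickkopf family, was higher by 3.09 ± 0.29 and 2.11 ± 0.39. Ccn2 and Ccn1, targets of YAP, were higher by 2.74 ± 0.35 and 2.38 ± 0.57 and by 1.15 ± 0.21 and 1.77 ± 0.29. Sfrp1, a Wnt antagonist, was higher by 2.73 ± 0.20 and 1.61 ± 0.46 but was not called after quantile normalization, and its 6 h difference was over 1.5 times as large without bile duct replicates 1 and 3. Axin2, a Wnt target, differed by -0.46 ± 0.21 and 0.14 ± 0.25 and was not called at either time. Lgr5, the pericentral Wnt co-receptor, differed by 0.21 ± 0.18 at 2 h and -1.26 ± 0.32 at 6 h.

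Receptor tyrosine kinases and their ligands were higher for 16 of 55 measured genes and lower for 6 (10 and 5 after quantile normalization), against 16.7% and 18.2% of all probe sets. Receptors higher in bile duct included Ddr1, a collagen receptor, by 4.26 ± 0.18 and 3.90 ± 0.23, Erbb2 by 2.66 ± 0.17 and 1.99 ± 0.26, Fgfr1 by 2.47 ± 0.19 and 1.57 ± 0.22, and Fgfr2 by 2.22 ± 0.19 and 1.59 ± 0.24. Gas6, the ligand of AXL and MERTK, was higher by 3.81 ± 0.16 and 2.41 ± 0.23. Plat, tissue plasminogen activator, was higher by 3.93 ± 0.25 and 1.84 ± 0.64, and was called in 17 of 19 fits that each left out 1 array. Its 6 h difference was 1.16 without bile duct replicates 1 and 3. Egfr and its ligand Egf were lower, at -3.08 ± 0.18 and -1.94 ± 0.31 and at -3.80 ± 0.28 and -2.73 ± 0.25. Met, the receptor of hepatocyte growth factor, read 1.82 ± 0.13 in bile duct at 2 h and 1.69 ± 0.12 in hepatocytes and was not called.

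Of 60 insulin, growth hormone and cytokine genes, 13 were higher and 14 lower in bile duct (8 and 14 after quantile normalization), shares not far from those of all probe sets, with medians of 0.07 and 0.02. The higher genes included chemokines, receptors and binding proteins, with differences of 6.14 ± 0.21 and 5.25 ± 0.22 for Cxcl16, 5.14 ± 0.19 and 5.09 ± 0.33 for the interleukin 17 receptor chain Il17re, 2.72 ± 0.14 and 2.80 ± 0.26 for Igfbp7, and 2.78 ± 0.78 and 2.91 ± 0.44 for the neutrophil chemokine Cxcl1. The lower genes included members of the growth hormone axis, with Ghr, its receptor, at -6.87 ± 0.17 and -5.33 ± 0.38, Igf1 at -4.75 ± 0.23 and -3.47 ± 0.49, Igfals at -4.30 ± 0.27 and -3.85 ± 0.46, and Igfbp1 at -4.23 ± 0.39 and -5.04 ± 0.63. Il6r, the receptor of the acute-phase cytokine interleukin 6, was lower, at -2.56 ± 0.36 and -3.45 ± 0.42. Insr, the insulin receptor, read 2.46 ± 0.50 in bile duct at 2 h and 2.34 ± 0.23 in hepatocytes and was not called.

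Bile acid synthesis genes were lower in bile duct for 13 of 17 measured members and higher for none, against 18.2% and 16.7% of all probe sets. The counts were the same after quantile normalization, and the medians were -3.16 and -3.29. Cyp7a1, the rate-limiting enzyme of the classical pathway, read 1.57, 1.82, 1.73, 1.73 and 1.90 in bile duct at 2 h, against 4.70, 4.48, 5.58, 5.65 and 4.15 in hepatocytes. At 6 h Cyp7a1 read 2.77, 1.96, 2.09 and 1.80 in bile duct, against 8.80, 7.84, 6.26, 7.77 and 8.74 in hepatocytes. The bile duct arrays stayed at the bottom of the scale at both times, and the hepatocyte arrays were higher at 6 h than at 2 h, so the difference was -3.16 ± 0.26 at 2 h and -5.73 ± 0.45 at 6 h. Cyp8b1, which sets the share of cholic acid, differed by -6.98 ± 0.41 and -5.20 ± 0.83, and Cyp27a1, of the alternative pathway, by -3.72 ± 0.16 and -3.34 ± 0.29. Slc27a5 and Baat, which activate and conjugate bile acids, differed by -7.49 ± 0.34 and -4.98 ± 0.50 and by -5.76 ± 0.30 and -4.80 ± 0.68. Akr1d1, a reductase of the same route, differed by -0.60 ± 0.18 and -0.09 ± 0.22 and was not called at 6 h.

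Drug-metabolising enzymes were lower for 46 of 63 measured cytochromes P450 and phase I enzymes and higher for 4 (45 and 3 after quantile normalization). The shares over all probe sets were 18.2% lower and 16.7% higher. Cyp2d2, Cyp2c11 and Cyp1a2 differed by -7.48 ± 0.45 and -5.44 ± 0.80, by -6.74 ± 0.49 and -4.11 ± 1.06, and by -3.83 ± 0.22 and -4.59 ± 0.75. The 6 h difference of Cyp2c11 was over 1.5 times as large without bile duct replicates 1 and 3. The higher genes were Cyp1b1 and Cbr1, at 1.33 ± 0.25 and 1.50 ± 0.24 and at 1.93 ± 0.25 and 1.09 ± 0.24, together with Cyp2s1 and Cbr3, which were not called after quantile normalization. Cyp1a1, a P450 induced through the aryl hydrocarbon receptor and singled out after its values were seen, averaged 8.43 in bile duct at 2 h and 2.24 in hepatocytes, and 5.69 in bile duct at 6 h and 4.63 in hepatocytes (limma adjusted p = 0.333 at 6 h). Members of these families resemble each other in sequence, so individual members are uncertain where a probe set may read several.

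Conjugating and glutathione enzymes were lower for 32 of 49 measured genes and higher for 7 (28 and 7 after quantile normalization), against 18.2% and 16.7% of all probe sets. Sult1b1, Sult1a1 and Ugt2b1, which attach sulfate or glucuronic acid, differed by -7.15 ± 0.32 and -5.14 ± 0.60, by -3.74 ± 0.29 and -3.98 ± 0.46, and by -5.89 ± 0.22 and -4.21 ± 0.25. Higher genes, beside Ggt1 and Gpx2 above, included Papss1, which makes the sulfate donor, by 4.55 ± 0.14 and 3.58 ± 0.25, Gstp1, the glutathione transferase of duct epithelium, by 3.43 ± 0.27 and 2.63 ± 0.25, and Gpx3 by 2.51 ± 0.20 and 1.50 ± 0.32.

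Glucose and glycogen genes were lower for 26 of 54 measured members and higher for 11 (23 and 12 after quantile normalization), against 18.2% and 16.7% of all probe sets. Enzymes of glucose production were lower, with Pck1 at -6.58 ± 0.24 and -4.26 ± 0.63, Fbp1 at -5.96 ± 0.22 and -4.47 ± 0.57, and Pc at -4.80 ± 0.25 and -5.10 ± 0.24. Hk1, the hexokinase of most tissues, read 6.95, 6.20, 5.90, 6.64 and 6.50 in bile duct at 2 h, against 3.35, 3.29, 2.97, 3.13 and 2.71 in hepatocytes. At 6 h Hk1 read 6.40, 5.86, 5.72 and 5.88 in bile duct, against 2.63, 2.81, 2.97, 3.75 and 2.50 in hepatocytes, with no overlap and differences of 3.35 ± 0.20 and 3.03 ± 0.27. Glycolytic enzymes Pfkm and Aldoa were higher by 2.48 ± 0.24 and 1.57 ± 0.26 and by 2.50 ± 0.14 and 2.37 ± 0.23. Pklr, the hepatic pyruvate kinase, was lower, at -4.84 ± 0.20 and -3.97 ± 0.39.

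Urea cycle and amino acid catabolism genes were lower for 48 of 59 measured members and higher for 3 (48 and 1 after quantile normalization). Against them stood 18.2% lower and 16.7% higher among all probe sets. The list medians were -4.10 and -3.79. Cps1, the entry enzyme of the urea cycle, differed by -5.94 ± 0.50 and -4.41 ± 1.06, and its 6 h difference was over 1.5 times as large without bile duct replicates 1 and 3. Otc, the next enzyme, differed by -6.71 ± 0.28 and -4.75 ± 0.60, and Arg1, the last, by -5.02 ± 0.35 and -4.69 ± 0.69. Hal and Tdo2, which open histidine and tryptophan breakdown, differed by -5.40 ± 0.27 and -2.86 ± 0.28 and by -5.98 ± 0.34 and -4.85 ± 0.76. Glul, glutamine synthetase of pericentral hepatocytes, averaged 8.71 ± 0.25 in bile duct at 2 h and 8.30 ± 0.63 in hepatocytes (limma adjusted p = 0.2), and 8.97 ± 0.39 in bile duct at 6 h and 9.72 ± 0.16 in hepatocytes (adjusted p = 0.0154). Its difference was 0.41 ± 0.26 at 2 h and -0.75 ± 0.23 at 6 h, a limma interaction of -1.16 (adjusted p = 0.0361), and the 6 h difference was not called after quantile normalization.

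The methionine adenosyltransferases whose promoters are shown above differed in opposite directions. Mat1a, the adult hepatocyte enzyme, read 6.49, 5.83, 5.91, 7.23 and 5.28 in bile duct at 2 h, against 11.89, 11.51, 11.87, 11.76 and 11.28 in hepatocytes. At 6 h Mat1a read 8.87, 6.04, 9.86 and 6.26 in bile duct, against 11.51, 11.54, 11.48, 11.43 and 11.61 in hepatocytes, with replicates 1 and 3 of bile duct the highest of their group. Mat2a, the enzyme of other tissues, read 9.25, 9.59, 9.83, 9.67 and 10.00 in bile duct at 2 h, against 7.86, 8.12, 7.87, 7.99 and 7.99 in hepatocytes. At 6 h Mat2a read 10.23, 9.88, 9.43 and 10.14 in bile duct, against 8.62, 8.66, 8.91, 8.88 and 8.63 in hepatocytes. Neither gene's groups overlapped, and the differences were -5.51 ± 0.30 and -3.76 ± 0.64 for Mat1a (-5.36 at 6 h without those 2 arrays) and 1.70 ± 0.15 and 1.18 ± 0.22 for Mat2a.

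Fatty acid, lipoprotein and cholesterol genes were lower for 64 of 86 measured members and higher for 4 (55 and 5 after quantile normalization). Among all probe sets 18.2% were lower and 16.7% higher. Apolipoprotein genes Apoa1, Apob and Apom differed by -7.09 ± 0.42 and -4.69 ± 0.82, by -5.54 ± 0.43 and -5.01 ± 0.90, and by -7.27 ± 0.25 and -5.33 ± 0.62. Fasn, fatty acid synthase, differed by -3.55 ± 0.25 and -3.90 ± 0.39, and Cpt1a, the gate of mitochondrial fat oxidation, by -1.42 ± 0.20 and -2.12 ± 0.27. Stearoyl-CoA desaturases divided, with Scd lower, at -6.60 ± 0.40 and -5.13 ± 0.51 and Scd2 higher by 4.76 ± 0.17 and 3.20 ± 0.36. The other higher genes were Cidea, a lipid droplet protein, Ptgs2, the inducible cyclooxygenase, and Agpat1. Plasma and coagulation proteins were lower for 37 of 44 measured genes and higher for 2 (36 and 1 after quantile normalization). They too stood against 18.2% and 16.7% of all probe sets, and their medians were -5.43 and -4.16. The 6 h median was -5.84 without the 2 bile duct arrays named above. Lcn2, described above, and F3, tissue factor, were the higher ones, and F3 was not called after quantile normalization or without those arrays.

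**Figure D4:**
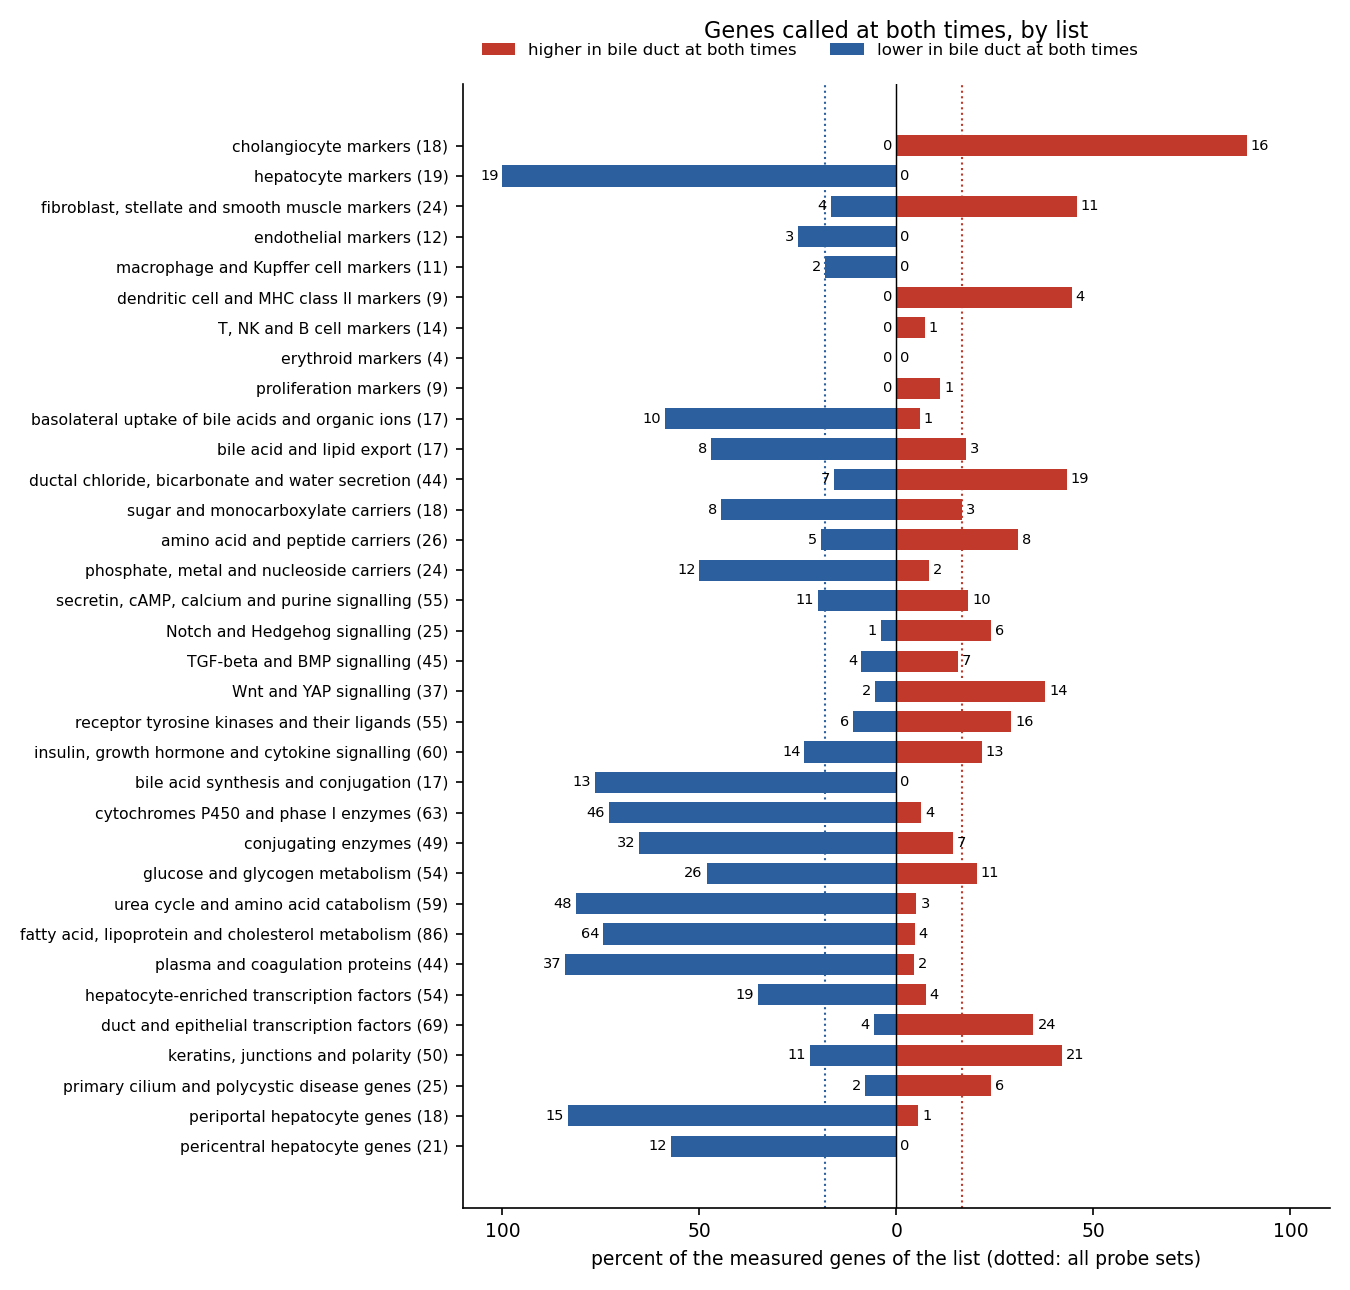
Percent of the measured genes of each list (number measured in parentheses) that were higher (red, to the right) or lower (blue, to the left) in bile duct at both times, with the count at the bar's end and dotted lines at the percentages of all probe sets (16.7% higher, 18.2% lower). Metabolic and plasma protein lists extend to the left, with 48 of 59 urea cycle and amino acid genes lower, and the cholangiocyte, secretion, junction and duct transcription factor lists to the right.

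Among 54 hepatocyte-enriched transcription factors, 19 were lower in bile duct and 4 higher (18 and 5 after quantile normalization). This compares with 18.2% lower and 16.7% higher among all probe sets, and 31 of the 54 were not called at both times. The list medians were -0.22 and -0.40. Nr1h4, the bile acid receptor FXR, read 4.11, 4.08, 5.05, 4.36 and 4.37 in bile duct at 2 h, against 7.29, 7.48, 7.07, 6.93 and 6.79 in hepatocytes. At 6 h Nr1h4 read 4.33, 5.14, 4.08 and 4.17 in bile duct, against 7.08, 7.45, 6.93, 6.64 and 6.34 in hepatocytes. The groups were separate by more than 1 log2 unit, with differences of -2.72 ± 0.20 and -2.46 ± 0.29, and Nr0b2, its target SHP, differed by -2.55 ± 0.33 and -3.12 ± 0.65. The xenobiotic receptors Nr1i3 (CAR) and Nr1i2 (PXR) differed by -4.11 ± 0.31 and -3.51 ± 0.21 and by -3.67 ± 0.16 and -2.78 ± 0.30. Klf15, a regulator of amino acid breakdown, differed by -3.32 ± 0.21 and -4.01 ± 0.30, Srebf1, of lipid synthesis, by -2.94 ± 0.25 and -2.97 ± 0.28, and Hnf4a by -1.51 ± 0.16 and -1.09 ± 0.24. Cebpa and Ppara were not called at either time, with differences of -0.22 ± 0.22 and -0.25 ± 0.24 and of -0.34 ± 0.27 and 0.15 ± 0.22 and all group means between 3 and 4. The higher factors were Nr2f2, at 2.26 ± 0.17 and 1.02 ± 0.25, Thra, Arnt and Cebpd, and Arnt and Cebpd were not called after quantile normalization.

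Among 69 duct and epithelial transcription factors 24 were higher and 4 lower in bile duct (21 and 3 after quantile normalization), with medians of 0.41 and 0.71. All probe sets were higher for 16.7% and lower for 18.2%. Klf5, a zinc finger factor of epithelia, read 5.64, 4.94, 5.30, 6.27 and 5.61 in bile duct at 2 h, against 1.53, 1.64, 1.50, 1.60 and 1.68 in hepatocytes. At 6 h Klf5 read 4.33, 2.75, 2.26 and 3.46 in bile duct, against 1.27, 1.47, 1.75, 1.54 and 1.54 in hepatocytes. All bile duct arrays stayed above the hepatocyte arrays, and the difference was 3.96 ± 0.21 at 2 h and 1.69 ± 0.35 at 6 h. Elf3 and Ehf, ETS factors of epithelia, were higher by 3.08 ± 0.19 and 2.10 ± 0.40 and by 1.44 ± 0.21 and 1.20 ± 0.30. Sox4, which acts in duct development, was higher by 2.97 ± 0.18 and 1.81 ± 0.24, Tcf4 by 2.80 ± 0.16 and 2.47 ± 0.27, Klf6 by 2.62 ± 0.20 and 2.11 ± 0.24, and Rfx5, an activator of MHC class II genes, by 2.04 ± 0.25 and 1.95 ± 0.24. Rarb, Maf, Bhlhe40 and Id3 were the lower factors, with Rarb at -3.13 ± 0.22 and -2.15 ± 0.34, and Maf and Id3 were not called after quantile normalization.

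Keratins, junctions and polarity genes were higher for 21 of 50 measured members and lower for 11 (21 and 9 after quantile normalization). All probe sets were higher for 16.7% and lower for 18.2%, so the share lower was not far from theirs. Krt20, Lama5, a laminin chain of basement membrane, and St14, a membrane protease of epithelia, were higher by 6.99 ± 0.17 and 5.86 ± 0.32, by 6.37 ± 0.15 and 5.07 ± 0.28, and by 5.70 ± 0.19 and 4.05 ± 0.30. Krt8 and Krt18, the keratins that hepatocytes also contain, were higher by 2.88 ± 0.18 and 2.33 ± 0.26 and by 1.71 ± 0.17 and 1.64 ± 0.21. Gja1, connexin 43, read 11.94, 12.13, 12.17, 12.28 and 12.44 in bile duct at 2 h, against 8.21, 7.70, 7.64, 7.88 and 7.80 in hepatocytes. At 6 h Gja1 read 12.31, 11.95, 11.98 and 12.37 in bile duct, against 8.50, 8.02, 8.59, 8.97 and 8.58 in hepatocytes. The groups did not overlap, and the differences were 4.35 ± 0.15 and 3.62 ± 0.23. Gjb2, connexin 26, was lower, at -4.29 ± 0.49 and -3.97 ± 0.25, Cldn12 at -2.57 ± 0.16 and -2.47 ± 0.19, and Cdh17 at -3.26 ± 0.55 and -3.84 ± 0.38. Cldn1 differed by -1.46 ± 0.17 at 2 h and 0.69 ± 0.38 at 6 h (limma adjusted p = 0.135), without a call at both times.

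Primary cilium and polycystic disease genes, which serve the sensory cilium of a cholangiocyte, were higher for 6 of 25 measured members and lower for 2 (5 and 1 after quantile normalization), against 16.7% and 18.2% of all probe sets. Called both with and without that normalization were 3 higher members and 1 lower. Dync2li1, of the ciliary transport motor, was higher by 3.66 ± 0.19 and 2.17 ± 0.23, Tekt1 by 3.49 ± 0.25 and 2.30 ± 0.43, and Glis2, of the nephronophthisis group, by 2.82 ± 0.28 and 3.09 ± 0.24. Pkd1 differed by -0.01 ± 0.14 and 0.57 ± 0.24 and was not called. Hepatocyte zonation genes were lower in both zones, with 15 of 18 periportal genes lower and 1 higher. Of 21 pericentral genes 12 were lower and none higher (1 was higher after quantile normalization). Both lists stood against 18.2% lower and 16.7% higher among all probe sets. The periportal medians were -4.93 and -3.95 and the pericentral ones -2.09 and -3.25.

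Related genes with the same reaction or role were set side by side in 21 pairs, each with a member known from hepatocytes, and both members were measured in 16. Since the pairs were built around a hepatocyte member, how many of them divide depends on that choice. In 9 pairs the hepatocyte member was lower and the other higher in bile duct at both times, 6 of them also after quantile normalization. Glycogen phosphorylases were such a pair, with Pygb at 3.82 ± 0.16 and 3.52 ± 0.25 and Pygl at -3.92 ± 0.16 and -3.80 ± 0.31. Lactate dehydrogenases were another, with Ldhb at 4.41 ± 0.17 and 3.32 ± 0.23 and Ldha at -2.70 ± 0.13 and -3.44 ± 0.39. Cadherins were a further one, with Cdh1 at 2.48 ± 0.17 and 1.40 ± 0.24 and Cdh2 at -2.02 ± 0.20 and -2.70 ± 0.34. The remaining pairs with both calls after normalization were Slc10a2 with Slc10a1, Mat2a with Mat1a and Abcc3 with Abcc2, described above. Arg2 with Arg1, Gja1 with Gjb1 and Gstp1 with Gsta1 lost 1 of their calls after quantile normalization.

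The other 7 pairs did not divide in this way. Fabp1 and Fabp5, fatty acid-binding proteins, were both lower, at -5.96 ± 0.41 and -3.92 ± 0.80 and at -2.54 ± 0.45 and -2.03 ± 0.29, and the 6 h difference of Fabp1 was -5.94 without bile duct replicates 1 and 3. In 2 pairs the hepatocyte member was lower and the other was not called, which were Gys2 with Gys1 and Aqp8 with Aqp1. In 4 pairs the other member was higher and the hepatocyte member was not called, which were Slc2a1 with Slc2a2, Pfkp with Pfkl, Itpr3 with Itpr2 and Fgfr2 with Fgfr4. Pfkp, a phosphofructokinase, was higher by 4.25 ± 0.17 and 2.91 ± 0.26, while Pfkl differed by 0.51 ± 0.19 and -0.47 ± 0.31.

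**Figure D5:**
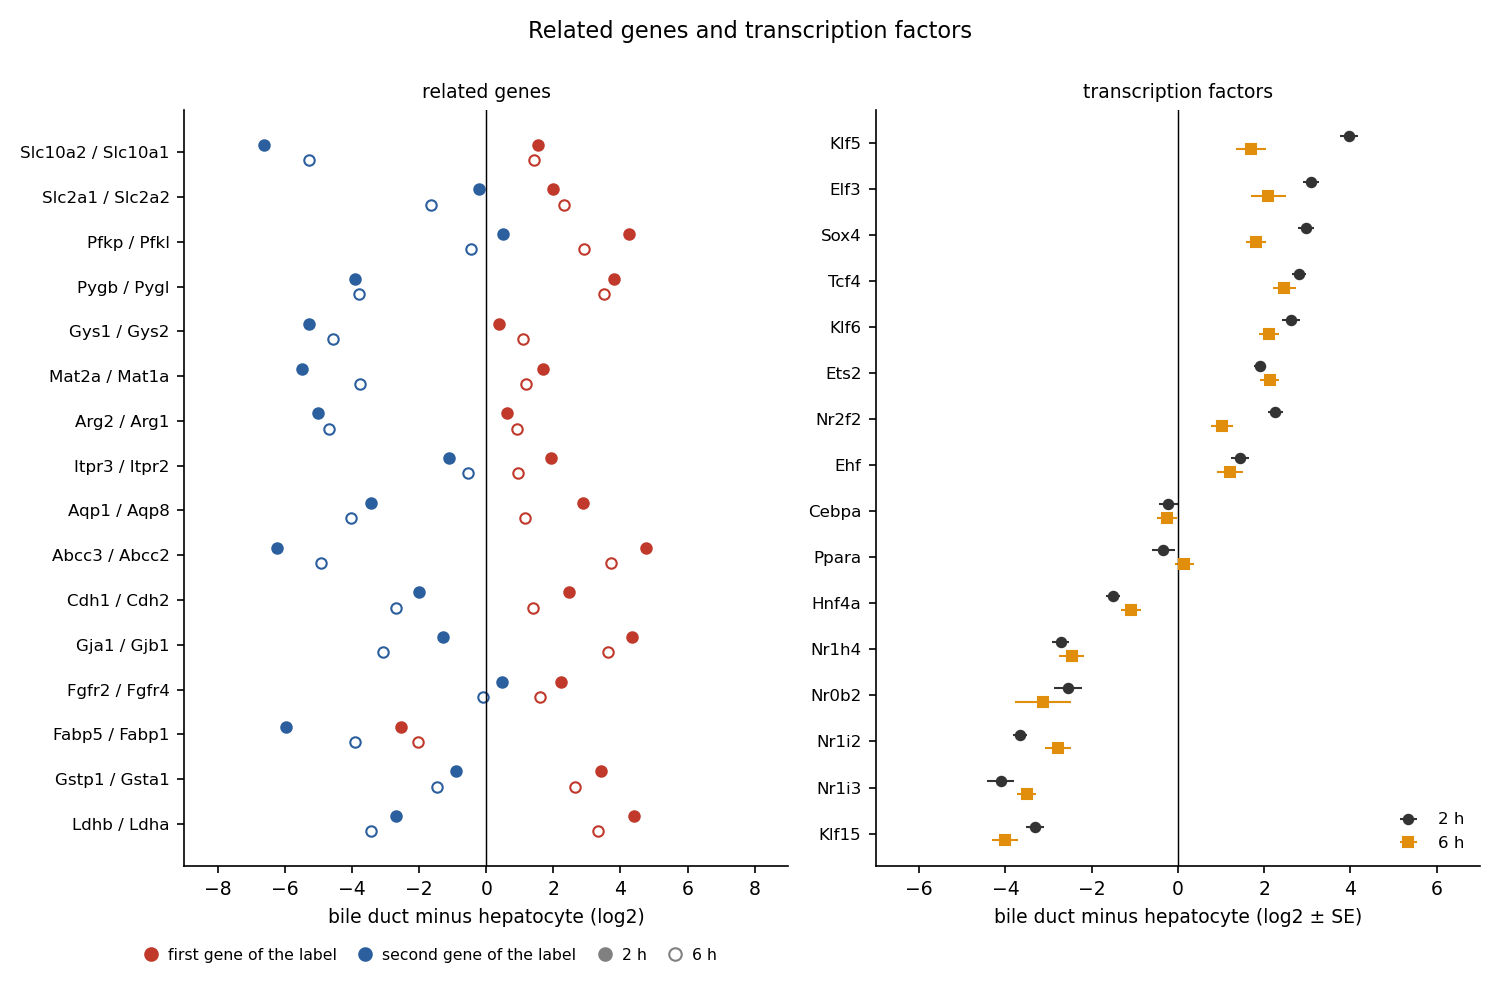
Left, bile duct minus hepatocyte difference (log2) of 16 pairs of related genes at 2 h (filled) and 6 h (open), the second gene of each label being the one known from hepatocytes. Right, the same difference ± SE for 16 transcription factors, which runs from Klf5 at 3.96 and 1.69 to Klf15 at -3.32 and -4.01, with Cebpa and Ppara near 0.

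The region difference itself changed between 2 h and 6 h in 2090 probe sets (13.2%), by the limma interaction of region and time over 19 arrays, 864 in the positive (5.45%) and 1226 in the negative direction (7.73%). Of the 5537 probe sets called at both times, 649 had such an interaction. Dbp, a clock-controlled transcription factor, read 3.90, 4.59, 3.53, 4.52 and 3.41 in bile duct at 2 h, against 3.53, 3.18, 3.34, 4.02 and 3.99 in hepatocytes. At 6 h Dbp read 3.76, 5.25, 5.19 and 5.98 in bile duct, against 8.17, 7.57, 8.37, 8.10 and 8.38 in hepatocytes. The groups overlapped at 2 h and were apart at 6 h, when hepatocyte arrays were highest, and the difference was 0.38 ± 0.26 at 2 h and -3.07 ± 0.37 at 6 h (limma interaction -3.45, adjusted p = 0.000514). Cyp7a1, described above, also had an interaction, of -2.56 (adjusted p = 0.00492), and Klf5 one of -2.28 (adjusted p = 0.00226). Inhba, an activin subunit, averaged 3.40 ± 0.30 in bile duct at 2 h and 4.43 ± 0.46 in hepatocytes, and 4.76 ± 0.28 in bile duct at 6 h and 3.61 ± 0.11 in hepatocytes, an interaction of 2.19. Bile duct arrays at 6 h had the narrowest spread over probe sets and the lowest correlations within a group, and their part in the interactions was not tested. After quantile normalization 836 probe sets had an interaction.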

How the data were processed

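RNA from laser-captured tissue was amplified (Picopure and NuGen Ovation, per the labels' protocols) and read on Affymetrix arrays. The deposited values are log2 signals, and RMA is named in the submitters' processing notes; its version is not given in the sources used here. From these, 57 control probe sets and the 20 columns of ANIT arrays were left out. Probe sets were named through the platform annotation: 12783 had 1 symbol, 312 several and 2771 none.

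Each time was fitted with limma 3.58.1 (R 4.3.3), bile duct minus hepatocyte, with Benjamini-Hochberg adjustment over 15866 probe sets. The change between times was the interaction over 19 arrays. Array measures were compared by two-sided exact permutation tests. Replicates are labelled as biological, but no label ties captures to an animal, so p-values measure the spread between these arrays. Their number limits the precision. Of 146 called list genes with further probe sets, 68 had another called the same way and 1 the opposite way.

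Named genes were the 12 per direction with the largest smaller-of-both-times difference and no overlap of arrays, the leading genes of 34 lists chosen by role, up to 4 more called members per list and direction, both members of each pair, and the 5 strongest interactions per direction. Members and lists were chosen with earlier results of these data known. On simulated data the 2 h fit recovered 68 of 100 genes changed 2-fold and 95 of 100 changed 4-fold, with 14 of 15666 unchanged ones called, and the 6 h fit 39, 88 and 31. Alternatives were quantile normalization, array medians, a filter on dim probe sets, other variance models and thresholds, a replicate block, 1 probe set per gene and leaving out arrays.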

Additional observations from a re-analysis of the deposited data

Results flagged for a closer look

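In bile duct at 6 h, the mean log2 level of the proliferation markers was 5.02 in replicate 4, against 4.37 to 4.45 in the other 3 arrays. It was the 1 value set apart among 124 array groups tested, where chance sets apart about 1 in 20.

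The bile duct minus hepatocyte difference itself differed between 6 h and 2 h (limma interaction, 6 h minus 2 h) for 15 of 29 named probe sets looked at. Of these 29, 10 were named for the strength of their interaction, so their count is fixed by that choice, and 5 of the other 19 had one. Over all named probe sets 62 of 335 had an interaction, against 13.2% of all probe sets. The interaction was negative for Dbp, at -3.45 (differences of 0.38 at 2 h and -3.07 at 6 h), Rbm39, at -2.69 (0.84 and -1.84), Cyp7a1, at -2.56 (-3.16 and -5.73), and Klf5, at -2.28 (3.96 and 1.69). It was also negative for Pja2, at -2.09 (0.18 and -1.91), Rnpepl1, at -1.86 (-0.47 and -2.33), Polr2e, at -1.53 (-0.29 and -1.82), Tgfb2, at -1.44 (4.19 and 2.76), Cd24, at -1.26 (6.92 and 5.66), and Abcc3, at -1.04 (4.77 and 3.73). It was positive for Inhba, at 2.19 (-1.03 and 1.16), and Elfn2, at 1.80 (0.45 and 2.24). It was positive too for 3 probe sets without a gene name here, at 1.84 (-0.20 and 1.64), at 1.82 (-0.64 and 1.18) and at 1.73 (0.12 and 1.85).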

How the results depend on the processing

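Of 335 named probe sets 286 were called at both times, 256 of these also after quantile normalization and 272 in every fit that left out 1 array, and none reversed in any setting run. The 14 that lost the call without some array were Agpat1, Alb, Arnt, Bcat1, Cbr3, Cebpd, Elfn2, F3, Fzd6, Id3, Lrp6, Maf, Plat and Slc2a3. The 2 h count of 8286 was 5412 without dim probe sets and 4172 with a log2 difference of at least 1. The 6 h count of 8515 was 5428 after quantile normalization, 4773 without dim probe sets, 5565 at an adjusted p under 0.01 and 5582 with a difference of at least 1. The count at both times, 5537, was 3575 without dim probe sets (928 higher) and 3064 with a difference of at least 1. The interaction count of 2090 was 836 after quantile normalization, 920 with the replicate block, 1011 with a block by file number and 499 at an adjusted p under 0.01. Subtracting array medians gave 3556 higher of 7867 at 6 h. Leaving out 1 array gave 7421 to 8506 at 2 h, 7276 to 8614 at 6 h, 5041 to 5641 at both and 1364 to 3280 interactions, with 3280 without bile duct 6 h replicate 4, 1366 without hepatocyte 2 h replicate 3 and 1364 without hepatocyte 2 h replicate 5. With the replicate block 7979, 6942 and 4808 probe sets were called at 2 h, 6 h and both. Same-numbered arrays deviated together by correlations of only -0.0256 to 0.129. These correlations cannot settle whether same-numbered captures share a rat, since no captures known to share a rat were available to compare. List members called numbered 667, 599 after quantile normalization, 522 without dim probe sets, 680 by the probe set with the largest SD and 664 without 6 h bile duct replicates 1 and 3. The cause of these changes was not tested, apart from fewer probe sets or stricter thresholds where a setting imposes them. Dim signals limit what the differences can show.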
